A study of Mus musculus with 6 samples.

Results

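The 10 genes described here encode transcription factors, or a nuclear protein, of the immediate-early response: Fos, Fosb, Jun, Junb, Jund, Atf3, Egr1, Egr2, Nr4a1 and Ier2. They were taken by symbol from the gene table of a droplet single-cell experiment in mouse brain, and all 10 were found among its 32285 genes. In that experiment, live cells depleted of mature neurons were sorted from the cortex at the stroke and from the matching cortex of the other hemisphere, at 1, 12 and 24 h. The stroke was made by closing a distal branch of the middle cerebral artery for good. All mice were male RGS5::GFP het animals of 8 to 12 weeks, in which GFP takes the place of 1 RGS5 allele, so the contralateral samples carried the reporter as well. The 6 groups (contra and ipsi at each time) had 1 library each, and the sample labels give another kit (v3.1, dual index) for the 12 h samples than for the rest (v3, single index). The paper reports fewer mice than libraries for the sequencing, so the libraries are not all from separate animals. It also names another sequencer (HiSeq) for the 24 h samples than for those at 1 and 12 h (NovaSeq). The matrix tells its 6 libraries apart by a number after each barcode, and no source used here ties a number to a hemisphere or a time. The members are therefore described by cell type and by numbered library, no library was given a condition, and no p-value was computed.

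Immediate-early genes need no new protein for their transcription. Kinase cascades act on factors already bound at their promoters, such as SRF with ELK partners at CArG boxes and CREB or ATF proteins at cAMP response elements, and the mRNA appears within minutes and is short-lived. FOS and JUN proteins pair through leucine zippers to form AP-1, ATF3 belongs to the same bZIP class, EGR1 and EGR2 bind DNA through zinc fingers, NR4A1 is an orphan nuclear receptor, and IER2 is a nuclear protein of the same response. In brain these genes are known for their induction by neuronal activity and ischemia, and also by enzymatic dissociation of tissue at body temperature, a step that all libraries here went through.

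RefSeq lists 250 bases before the start of transcription for 8 of the members in its promoter table for GRCm38.p6, and 7 of them are shown because the core of the cAMP response element, or its relative in the Jun promoter, lies near the start. The 150 bases before the start are given from 5′ to 3′ on the strand of the gene. Capitals mark TGACG in either orientation, and in Jun they mark TGACATCA. They lie at chr12:85473740-85473889 on the plus strand (Fos), chr7:19310046-19310195 on the minus strand (Fosb), chr4:95052223-95052372 on the minus strand (Jun), chr8:84978749-84978898 on the minus strand (Junb), chr1:191183334-191183483 on the minus strand (Atf3), chr10:67537719-67537868 on the plus strand (Egr2, from 1 of its 5 listed starts) and chr15:101266696-101266845 on the plus strand (Nr4a1).
Fos: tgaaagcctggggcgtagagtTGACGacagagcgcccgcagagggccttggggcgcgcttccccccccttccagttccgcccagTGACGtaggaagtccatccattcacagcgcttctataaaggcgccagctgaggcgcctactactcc
Fosb: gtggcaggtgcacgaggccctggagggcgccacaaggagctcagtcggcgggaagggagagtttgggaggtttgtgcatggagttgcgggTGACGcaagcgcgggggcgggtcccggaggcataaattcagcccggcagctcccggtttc
Jun: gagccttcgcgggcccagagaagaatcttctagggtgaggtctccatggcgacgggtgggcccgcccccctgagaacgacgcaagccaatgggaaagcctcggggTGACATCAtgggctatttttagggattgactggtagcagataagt
Junb: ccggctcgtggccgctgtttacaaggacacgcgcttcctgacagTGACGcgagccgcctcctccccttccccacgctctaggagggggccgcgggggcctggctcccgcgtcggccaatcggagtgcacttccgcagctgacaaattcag
Atf3: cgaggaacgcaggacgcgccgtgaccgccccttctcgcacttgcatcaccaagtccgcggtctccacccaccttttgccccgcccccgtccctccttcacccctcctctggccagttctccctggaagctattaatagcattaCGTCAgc
Egr2: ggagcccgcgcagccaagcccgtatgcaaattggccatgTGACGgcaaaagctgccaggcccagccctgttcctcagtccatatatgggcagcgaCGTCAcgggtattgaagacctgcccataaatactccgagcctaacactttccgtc
Nr4a1: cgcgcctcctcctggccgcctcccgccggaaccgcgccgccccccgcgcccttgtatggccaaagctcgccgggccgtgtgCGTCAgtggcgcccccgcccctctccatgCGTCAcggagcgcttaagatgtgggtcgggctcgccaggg
Both strands of the 250 bases were searched for 10 motifs in the 8 members with an entry. Egr1 and Ier2 had none and were not searched, nor were bases outside this window. TGACG lay before at least 1 start of 6 members (Fos, Fosb, Junb, Atf3, Egr2 and Nr4a1) and in 17.8% of the 32851 listed promoters. The CArG box was matched in Egr2 and in 1.47% of all promoters, TATAAA in Fos and in 12.4%, TGACATCA in Jun and in 2.93%, and GCGGGGGCG, an EGR site, in Fosb and Nr4a1 and in 2.57%. The GC box GGGCGG, which can overlap that EGR site, was matched in 6 members and in 32.7% of promoters. The whole cAMP response element TGACGTCA, of which TGACG is a part, was matched in none of the 8 members searched and in 1.55% of all promoters. The same held for the AP-1 site TGANTCA (in 6.75% of all promoters). It also held for a second EGR site, written GCGTGGGCG (in 0.536%), and for the ETS site, written CCGGAAGT (in 2.88%). These matches describe letters and not binding.

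After a cell call within each library, 17357 cells remained, with 1221 to 5873 cells per library and median depths of 5053 to 5660.5 UMIs per cell, a UMI being a tag by which each captured RNA molecule is counted once. Doublet calls took 0.694% to 2.49% of the cells of a library, 26 cell barcodes occurred in more than 1 library, and the median mitochondrial share was 3.83% and 3.37% in libraries 1 and 2 against 1.13% to 2.50% in the others. Clusters were named from markers, with the members and the related genes below kept out of the genes that formed them. The microglia-like class had 8050 cells, the oligodendrocyte-like class 2837, the endothelial-like class 2668, the astrocyte-like class 1168 and the pericyte-like class 870, followed by cells like monocyte-derived macrophages (376), neuroblasts (340), smooth muscle (259) and neutrophils (178). A cluster of 258 cells led by Cd74 and other class II genes, in which markers of perivascular macrophages were also raised, is called the Cd74-led cluster. Mog, a myelin gene, stood at 1337 CPM (UMIs of a gene in 1000000 UMIs) in the oligodendrocyte-like class against 31.3 in the next class, P2ry12 at 1831 against 143 in microglia-like cells, Cldn5 at 3738 against 164 in endothelial-like cells, and Kcnj8 at 1633 against 77.3 in pericyte-like cells.

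The members divided the classes into a high side, with microglia-like and smooth muscle-like cells and the Cd74-led cluster, and a low side of astrocyte-like and oligodendrocyte-like cells. Summed over the 10 members, microglia-like cells held 16913 CPM, smooth muscle-like cells 16325 and the Cd74-led cluster 14235. The sum in the Cd74-led cluster varied widely, with 24151, 18685, 26335 and 7608 CPM in libraries 3 to 6. Microglia-like cells of the same libraries held 16877, 15629, 20719 and 15613 CPM. Endothelial-like cells held 7158 CPM, pericyte-like cells 3777, oligodendrocyte-like cells 1869 and astrocyte-like cells 1367. With all libraries pooled, the highest class was microglia-like for 5 members, smooth muscle-like for 3, neutrophil-like for 1 and endothelial-like for 1, among the 10 classes of at least 100 cells. This order did not hold in each library. Jun, Atf3 and Egr2 were higher in microglia-like cells than in the Cd74-led cluster in only 1 of 4 libraries. The same was true of Ier2 in endothelial-like cells. Jund stood at 2727, 2131, 2536 and 667 CPM in the Cd74-led cluster of libraries 3 to 6. Microglia-like cells of these libraries held 2028, 1685, 2107 and 1345 CPM of Jund without called doublets. Egr1 was higher in the Cd74-led cluster in libraries 3 and 5. How often each class was highest over all genes was not counted. All 10 members differed at least 4-fold between their highest and lowest class. So did 85.1% of all 14044 genes with at least 100 UMIs, so that the count itself does not set the members apart. The median ratio was 23.0 over the members and 12.1 over all of these genes.

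Fos, the founding AP-1 subunit, was highest in smooth muscle-like cells at 5528 CPM (95% Poisson interval 5420 to 5637) and lowest in oligodendrocyte-like cells at 235 (229 to 241), a ratio of 23.6. In the 4 libraries with at least 20 smooth muscle-like cells it stood at 3517, 5212, 8074 and 4797 CPM (libraries 3 to 6). Each of them lay above every library of the oligodendrocyte-like class, where Fos ran from 73.7 to 479 CPM. These intervals cover counting error only. The close relative Fosb had the same highest class, at 731 CPM, and was lowest in astrocyte-like cells at 20.1, a ratio of 36.3 that became 61.8 without called doublets. Smooth muscle-like cells of libraries 3 to 6 held 680, 828, 748 and 671 CPM of Fosb, and no library of the astrocyte-like class was above 40.7.

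Of the JUN subunits, Jun was highest in microglia-like cells at 6185 CPM (6162 to 6209), against 432 (424 to 440) in oligodendrocyte-like cells. The microglia-like cells of libraries 1 to 6 held 7980, 5650, 6549, 5028, 8126 and 5846 CPM of Jun. Every library of the oligodendrocyte-like class was at 518 CPM or lower, so the classes did not overlap. Junb, which can restrain JUN activity in AP-1, was highest in neutrophil-like cells at 2505 CPM (2387 to 2626), with smooth muscle-like cells next at 2449, and lowest in oligodendrocyte-like cells at 98.4. Neutrophil-like cells of libraries 3, 4 and 6 held 3140, 2614 and 1807 CPM of Junb, which overlapped the smooth muscle-like range of 1783 to 3210. Jund, the subunit known for steady expression, had the smallest ratio of the members, 8.24, between microglia-like cells (1867 CPM) and astrocyte-like cells (227). Oligodendrocyte-like cells, low for the other subunits, held 800 CPM of Jund, between 516 and 1157 by library.

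Atf3, a bZIP factor of the stress response, was at 2381 CPM (2367 to 2395) in microglia-like cells and 94.7 (91.0 to 98.5) in oligodendrocyte-like cells, a ratio of 25.1. The microglia-like cells of libraries 1 to 6 held 3123, 2585, 2091, 2406, 2759 and 2609 CPM, and no library of the oligodendrocyte-like class was above 270. Library 4 decided part of this ratio, which was 56.1 without it. Among the classes next to each other in the order of Atf3, neutrophil-like cells (863 to 1239 CPM by library) lay above endothelial-like cells (279 to 431), and these above pericyte-like cells (53.4 to 262), without overlap.

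Egr1 was highest in microglia-like cells at 1141 CPM (1131 to 1151), with libraries 1 to 6 at 1356, 1382, 1084, 1173, 1194 and 1067. Smooth muscle-like cells came next at 855 CPM, and their libraries, from 773 to 936, lay below every microglia-like library. The Cd74-led cluster held 777 CPM with its libraries pooled, but 1665, 1151, 1448 and 304 CPM in libraries 3 to 6. It thus lay above microglia-like cells in libraries 3 and 5, and the 2 ranges overlapped. Astrocyte-like cells were lowest at 80.1 CPM, with 15.97 to 189 by library. Egr2, known for its part in myelinating Schwann cells, was rare, with 5315 UMIs in all cells. Microglia-like cells held 99.9 CPM of it, the Cd74-led cluster 86.0, and each other class of at least 100 cells 34.9 or less. Neutrophil-like cells had 3 UMIs of Egr2, and the ratio of 22.7 to microglia-like cells carries a counting interval of 7.77 to 110. It was 15.02 with the filters of the study alone.

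Nr4a1 was highest in smooth muscle-like cells at 585 CPM (550 to 621), with 748, 801, 590 and 328 in libraries 3 to 6, and lowest in astrocyte-like cells at 33.8 (29.7 to 38.3). All 9 pairs of neighbours in its order of classes overlapped in their libraries. Ier2 was the member with its highest level in endothelial-like cells, at 564 CPM (551 to 578), and libraries 1 to 6 stood at 581, 672, 591, 636, 586 and 448. The Cd74-led cluster followed at 557 CPM, between 312 and 930 by library, which overlapped. Oligodendrocyte-like cells held 24.2 CPM of Ier2, a ratio of 23.3 that became 36.2 without library 4.

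**Figure D1:**
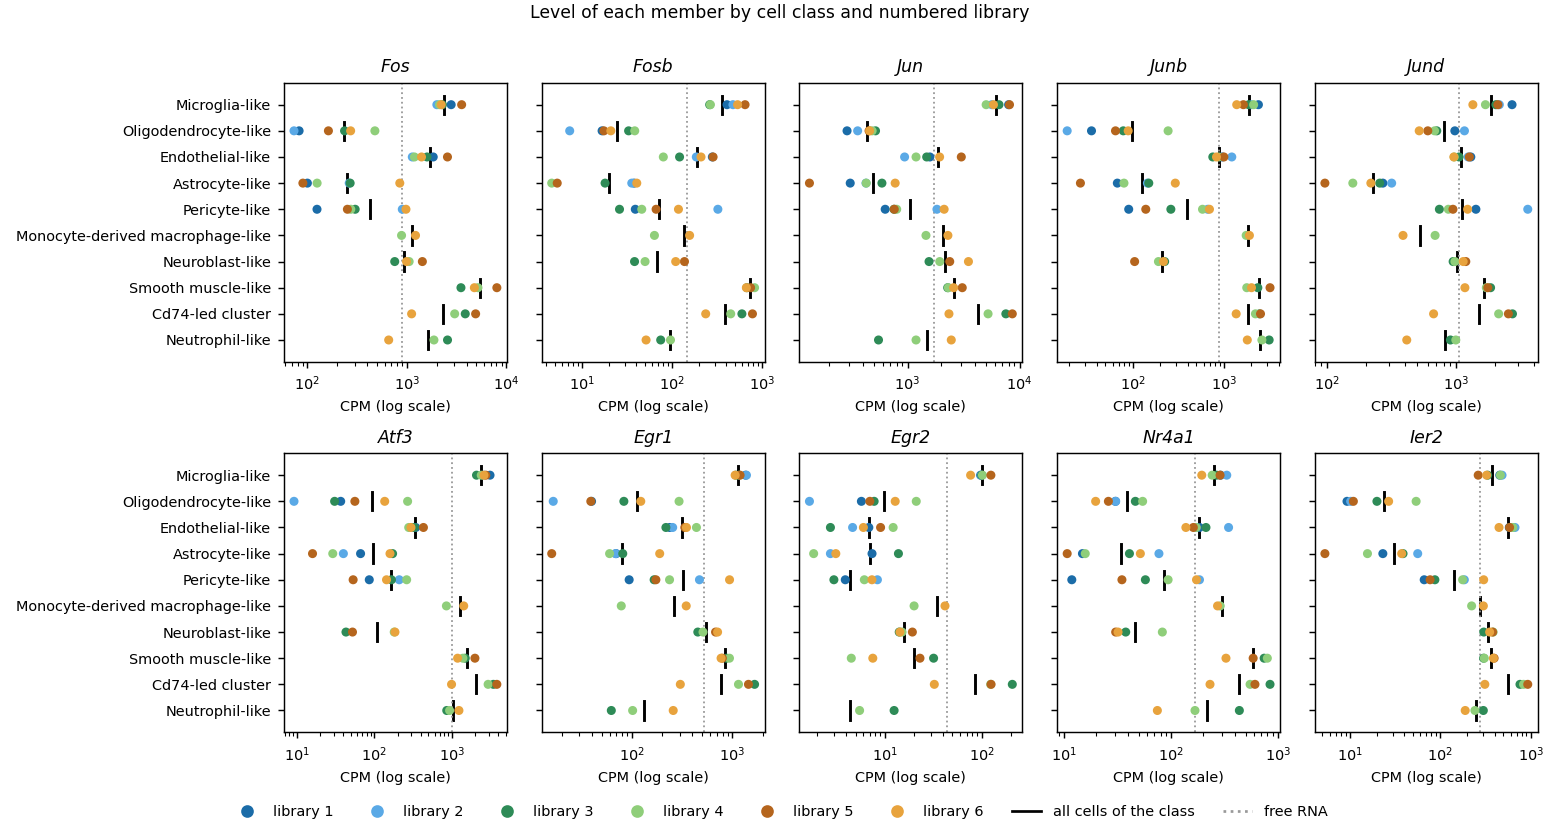
Level of each member in CPM (log scale) in the 10 classes of at least 100 cells, with a point for each numbered library of at least 20 cells above 0, a bar for all cells of the class and a dotted line for free RNA. Fos, Fosb and Nr4a1 have their highest bar in smooth muscle-like cells, and the bars of astrocyte-like and oligodendrocyte-like cells lie left of the dotted line for each member, while the oligodendrocyte-like point of library 2 for Jund (1157 CPM) lies right of it.

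For Fos, Fosb, Jun, Egr2 and Nr4a1, all 9 pairs of neighbouring classes overlapped in the range of their libraries, and for the other members 7 or 8 did, which makes 82 of 90 pairs. The classes come from the same libraries, and of 64 overlapping pairs that could be compared within at least 3 libraries, 8 had the same class higher in every one. Neither count was made over all genes, so they do not set the members apart. Fos was higher in smooth muscle-like than in microglia-like cells in 4 of 4 libraries and in pericyte-like than in astrocyte-like cells in 6 of 6. Fosb was higher in microglia-like than in endothelial-like cells in 6 of 6, as was Jun in pericyte-like over astrocyte-like cells. Free RNA, measured in barcodes of 1 to 50 UMIs, also carried the members: Fos at 905 CPM, Jun at 1715, Atf3 at 1009 and Ier2 at 273. These levels lie above those in astrocyte-like and oligodendrocyte-like cells, for each member. With the UMIs expected from 5% free RNA subtracted, the ratio of highest to lowest class was 46.9 in place of 25.4 for Junb, 41.6 in place of 25.1 for Atf3, 36.5 in place of 22.7 for Egr2 and 54.8 in place of 23.3 for Ier2.

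Between libraries, the members varied more than other genes in some of the classes and not in others. The highest and the lowest library of a class were compared for members with at least 100 UMIs there, and a ratio of 4 was taken as large. In microglia-like cells 0 of 10 members reached it (7.58% of all genes tested there) and in endothelial-like cells 0 of 9 (7.29%). These counts of 0 lay near the shares over all genes and do not set the members apart there. In oligodendrocyte-like cells 7 of 10 did (5.35%), in astrocyte-like cells 7 of 9 (8.27%) and in pericyte-like cells 8 of 9 (9.6%), and in the cells like monocyte-derived macrophages, compared between libraries 4 and 6, 1 of 10 did (2.38%). The median ratio over the members was 1.72 in microglia-like, 2.01 in endothelial-like, 6.16 in oligodendrocyte-like, 8.80 in astrocyte-like and 7.70 in pericyte-like cells, against 1.86, 1.93, 1.65, 2.02 and 2.09 over all genes tested. In cells like monocyte-derived macrophages, between libraries 4 and 6, the median was 1.62 over the members and 1.31 over all genes tested. No library has a replicate, so the error of these ratios beyond counting could not be estimated.

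**Figure D2:**
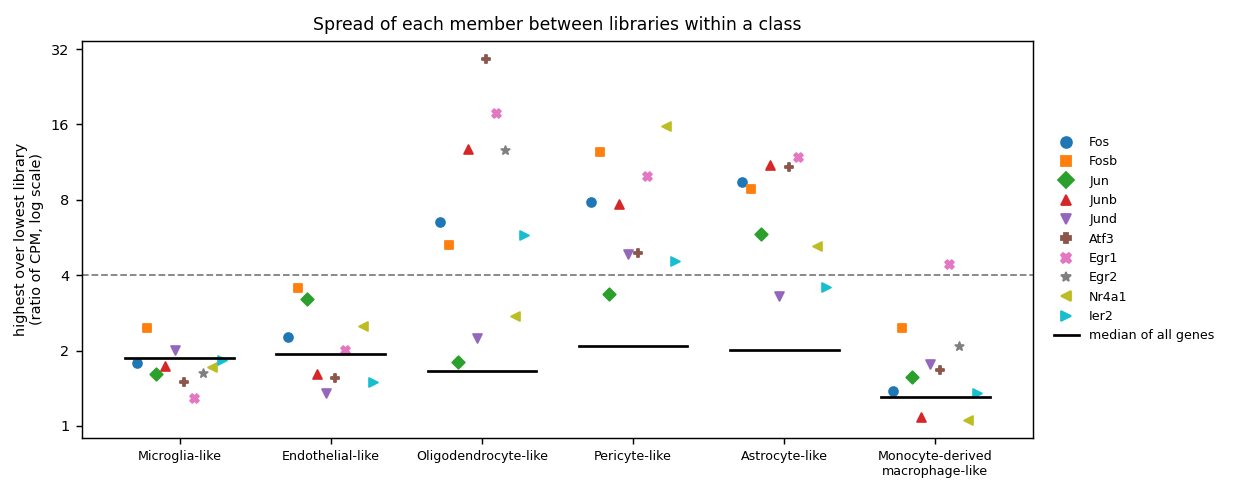
Ratio of the highest to the lowest numbered library (log scale) for each member with at least 100 UMIs in a class, with a bar at the median over all genes tested and a dashed line at 4. In microglia-like and endothelial-like cells each point lies below the dashed line, and in pericyte-like cells Jun alone does.

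Pericyte-like cells carried most of the members at higher levels in libraries 2 and 6. The members summed to 2569, 8365, 2571, 3348, 2502 and 6709 CPM in libraries 1 to 6. Fos was at 125, 904, 304, 274, 254 and 984.5 CPM, from 32 to 533 UMIs, with 95% intervals of 787 to 1033.5 in library 2 and 903 to 1072 in library 6, and no other library above 335 at its upper bound. The intervals of libraries 2 and 6 overlapped each other, and all of these intervals cover counting error only. Egr1 was at 94.1, 471, 167, 237, 174 and 938 CPM, and here library 6 lay above library 2. Nr4a1, with as few as 3 UMIs in library 1, was at 11.8, 185, 57.6, 94.0, 34.7 and 174 CPM. Fosb was at 324 CPM in library 2 and 118 in library 6, against 26.2 to 66.8 in the rest.

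Jun held 1830 and 2120.5 CPM in pericyte-like cells of libraries 2 and 6 against 631 to 800 in the others, a ratio of 3.36 between the highest and the lowest. Jund was highest in library 2 at 3583 CPM, against 740 to 1420 elsewhere. Junb did not follow the same split, with 583 CPM in library 4 beside 665 and 695 in libraries 2 and 6. Atf3 was highest in library 4 at 262 CPM, where 1 cell gave 45.3% of its UMIs. Without called doublets it stood at 72.1, 200.2, 13.4, 49.8, 20.7 and 147 CPM, and libraries 2 and 6 were then the highest. In the larger of the 2 pericyte-like clusters alone (cluster 6) the members summed to 8365 and 7349 CPM in libraries 2 and 6 and to 2502 to 2833 in the others. The smaller one, led by Il11, had 65 cells, of which 29 were of library 4 and 36 of library 6.

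RNA of other cells also lay in the pericyte-like class. The 7 microglia markers summed to 168 and 480 CPM in libraries 2 and 6 and to 263, 2182, 1712 and 927 in libraries 1, 3, 4 and 5. None of the 7 was at 0, and in microglia-like cells they summed to 16720 CPM. Endothelial markers summed to 800, 871, 622, 462, 804 and 984.5 CPM in libraries 1 to 6, and to 11521 in endothelial-like cells. In pericyte-like cells the endothelial sums were highest in libraries 2 and 6. The part of microglial or endothelial RNA in the result was not tested, and markers of smooth muscle were not summed in these cells. Without called doublets, Fos stood at 84.8, 823, 116, 184, 263 and 997 CPM in libraries 1 to 6 and Jun at 564, 1850, 152, 590, 585 and 1967. All 9 members tested then reached a ratio of 4, the lowest library changed for 5 of them, and the highest changed for Atf3. Of the 54 values by library 12 moved by over 1.5 times, among them Junb in library 3 (262 to 73.2 CPM). Hspa1a, a heat shock gene induced by protein stress, was at 984, 1918, 712, 606, 1893 and 2313 CPM in the same cells. Libraries 2, 5 and 6 were high for it, while library 5 was low for the members, and the part of such stress in the result was not tested.

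In oligodendrocyte-like cells library 4 was the high one. Atf3 was at 36.9, 9.21, 30.8, 270, 56.2 and 136.5 CPM in libraries 1 to 6, and Egr1 at 39.8, 16.5, 83.4, 295, 39.1 and 123. Fos was at 82.9, 73.7, 238, 479, 163 and 273 CPM. All 3 were lowest in library 2 and highest in library 4, with ratios of 29.3, 17.9 and 6.51. Jun (288 to 518 CPM) and Nr4a1 (19.7 to 54.3) differed by less than 4-fold. So did Jund, which had its highest level, 1157 CPM, in library 2, where Atf3, Egr1 and Fos were lowest.

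A cluster of 146 oligodendrocyte-like cells led by Il33, with Serpina3n among its 10 leading genes (cluster 19), held 92 cells of library 4 and 53 of library 6. Its Egr1 level was 1038 CPM and its Atf3 level 941, against 43.1 and 38.2 in the largest oligodendrocyte-like cluster (cluster 1). Within cluster 1, library 4 was still the highest for Fos (288 CPM against 46.6 to 173), for Atf3 (89.5 against 8.72 to 53.5) and for Egr1 (69.5 against 15.7 to 57.7). In cluster 11, of 381 cells, it was not. Fos and Egr1 were highest there in library 3 (499 and 170 CPM, against 198 and 34.9 in library 4). Atf3 was highest there in library 1 (28.2 against 7.76 in library 4). Library 4 was the higher for each of these genes in cluster 18, compared with library 3, and in cluster 19, compared with library 6. Microglia markers summed to 208, 84.5, 822, 491, 520.2 and 166 CPM in oligodendrocyte-like cells of libraries 1 to 6, lowest in library 2, where Atf3, Egr1 and Fos were lowest, and highest in library 3. Their part in the result was not tested. Without called doublets Atf3 stood at 21.8, 7.48, 22.1, 259, 19.9 and 122 CPM, Egr1 was still lowest in library 2 (11.1) and highest in library 4 (298), and Fos was lowest in library 1 (59.9) and highest in library 4 (462). Of 60 values by library 11 moved by over 1.5 times, and 7 members still reached a ratio of 4. Hspa1a was also highest in library 4, at 436 CPM against 191 to 361, and its part in the result was not tested.

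Astrocyte-like cells had their highest levels of Fos, Jun, Junb, Egr1 and Fosb in library 6, for Fosb only with called doublets kept. Fos stood at 100.5, 265, 270, 126, 90.5 and 853 CPM in libraries 1 to 6. Egr1 stood at 69.8, 68.9, 81.3, 60.1, 15.97 and 189 CPM, and Junb at 67.7, 145, 150, 80.0, 26.6 and 293. Library 5 was the lowest for each of these 3, and it held 31 astrocyte-like cells with 17 UMIs of Fos, 3 of Egr1 and 5 of Junb. Without library 5, 5 members instead of 7 reached a ratio of 4. Without called doublets Fos stood at 104, 257, 115, 123, 90.5 and 811 CPM, Fosb was highest in library 1 (39.4, against 23.4 in library 6), and Atf3, highest in library 3 with doublets kept (173), was highest in library 6 (76.9). Of 54 values by library 14 moved by over 1.5 times. In the larger astrocyte-like cluster (cluster 7) Fos was at 933 CPM in library 6 and at 12.8 to 229 in the other 4 libraries with at least 20 cells. In the smaller one (cluster 10) library 6, with 28 cells, was also the highest for Fos (527 CPM). It was not for Jun and Junb, highest in library 3 (1151 and 325 CPM, against 981 and 136 in library 6). Nor was it for Egr1, highest in library 2 (225 against 191). The 7 microglia markers summed to 522, 263, 1473, 373, 95.8 and 727 CPM in astrocyte-like cells of libraries 1 to 6, and Hspa1a stood at 184, 16.5, 287, 64.8, 5.32 and 236. Both were lowest in library 5 and second highest in library 6, and the 11 heat shock genes summed to 1901 CPM in library 5 and to 5303 in library 6, their lowest and highest. The part of these in the result was not tested.

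With the clusters of a class pooled, the members were more even between libraries in microglia-like and endothelial-like than in oligodendrocyte-like, astrocyte-like and pericyte-like cells. In microglia-like and endothelial-like cells they were about as even as all genes tested, with median ratios of 1.72 against 1.86 and 2.01 against 1.93. The 10 members summed to 21617, 17184, 16877, 15629, 20719 and 15613 CPM in microglia-like cells and to 7327, 6316, 6368, 5854, 9667 and 6580 in endothelial-like cells. Libraries 1 and 5 were the highest in both classes, and both were below libraries 2 and 6 in pericyte-like cells and below library 4 in oligodendrocyte-like cells. Fosb had the largest ratio of the members in both classes, 2.47 and 3.57. Single clusters could be less even. In microglia-like cluster 0 Fos ran from 175 to 719 CPM by library and Fosb from 26.9 to 121, while Jun ran from 2116 to 4664. Fosb ran from 183 to 895 CPM in microglia-like cluster 3 and from 786 to 1351 in cluster 4. In endothelial-like cluster 2 it ran from 50.1 to 272 CPM. Microglia-like cells of libraries 4 and 6 included 2 clusters that were rare elsewhere. Cluster 5, led by Ccl12, had 550 and 415 of its 1049 cells in these libraries, and cluster 8, led by Spp1, had 386 and 211 of its 601 cells there.

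**Figure D3:**
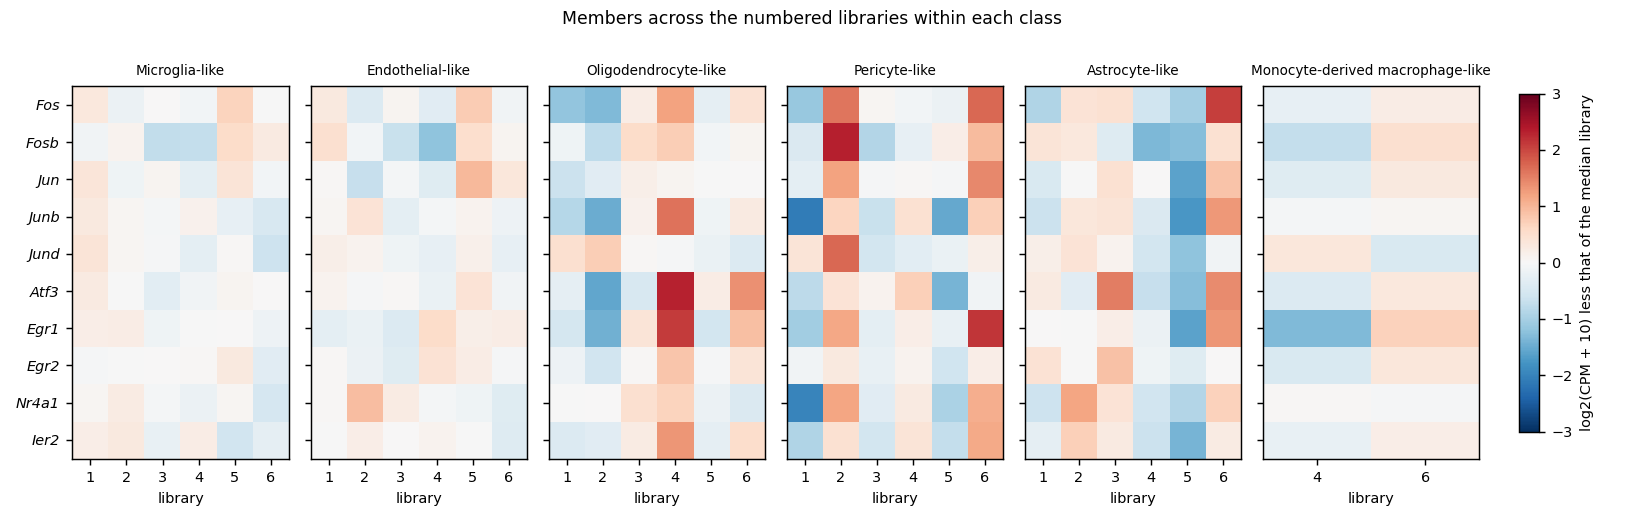
Difference of log2(CPM + 10) in each numbered library from the median library of the class, for each member (rows) in the 6 largest classes (panels), in libraries with at least 20 cells of the class. Most members are red (higher) in libraries 2 and 6 of pericyte-like cells, library 4 of oligodendrocyte-like cells and library 6 of astrocyte-like cells, while the microglia-like and endothelial-like panels are paler.

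Within the microglia-like class the members varied more between clusters than between libraries. Summed over the 10 members, clusters 0, 5, 8, 3 and 4 held 6504, 13334, 15722, 20213 and 36411 CPM. Fos stood at 586 CPM in cluster 0 and 6115 in cluster 4, Atf3 at 296 and 6191, Egr1 at 255 and 2818, and Nr4a1 at 43.8 and 739. In every library the sum in cluster 4 (30393 to 39841 CPM) was above that in cluster 3 (17632 to 24643), and that above cluster 0 (4358 to 8828). Cluster 4 had 1216 cells and was led by Cd83, Ccl4 and Ccl3, an activation gene and a pair of chemokine genes. Atf3, a member, was also among its 10 leading genes. No test is given, because clusters are drawn from the same cells. Clusters are formed so as to differ, and clusters and libraries were not compared in this way over all genes. The larger spread between clusters therefore does not set the members apart. In cluster 8 Atf3 (3662 CPM) and Junb (2516) were above their levels in cluster 3 (2190 and 1909), whereas Jun (3786) and Jund (1167) were below (8524 and 2535). Hspa1a stood at 1207, 2830, 2411, 3630 and 5273 CPM in clusters 0, 5, 8, 3 and 4. It rose in the order of the member sums, except that it was lower in cluster 8 than in cluster 5. Its part in the result was not tested.

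**Figure D4:**
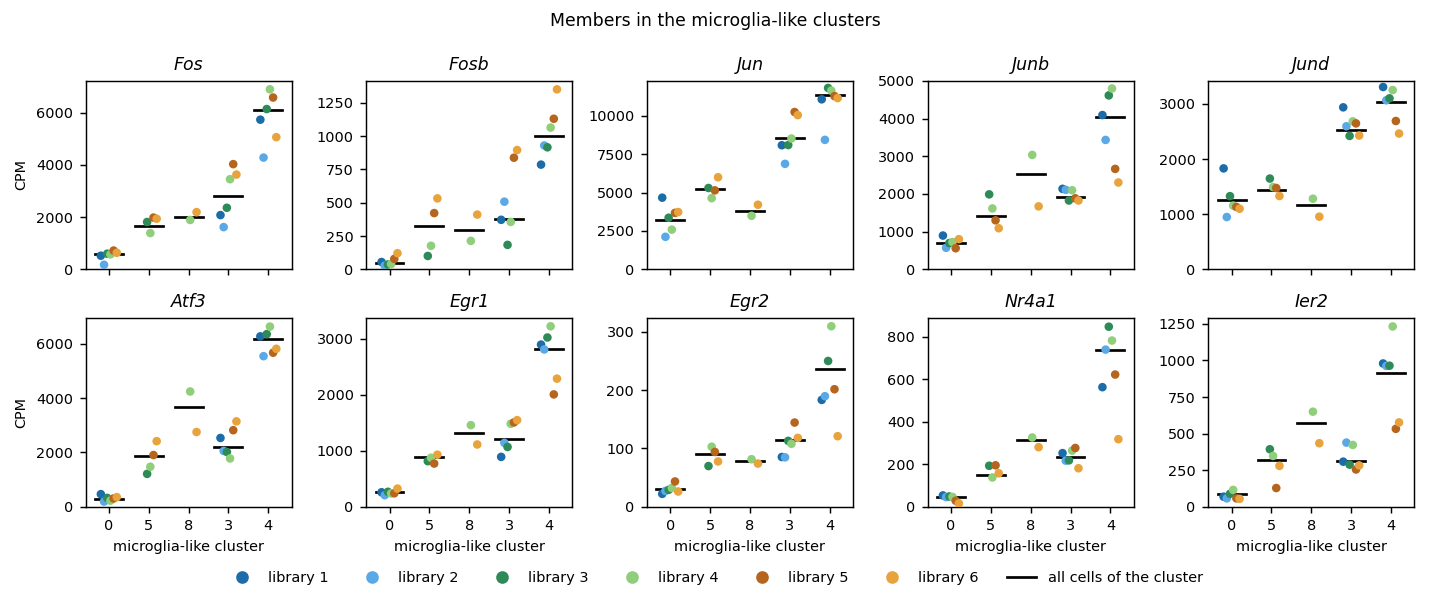
CPM of each member in the 5 microglia-like clusters, with a point for each numbered library of at least 20 cells and a bar for all cells of the cluster. Cluster 4 has the highest bar for each member and cluster 0 the lowest for all but Jund, which is lowest in cluster 8.

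To compare single cells at 1 depth, 1000 UMIs were drawn from each, a depth that every cell reached. At least 5 of the 10 members were found in 42.3% of microglia-like cells, 45.9% of smooth muscle-like cells and 47.7% of the Cd74-led cluster. The share in the Cd74-led cluster was 59.2%, 55.9%, 83.3% and 27.3% in libraries 3 to 6. In cells like monocyte-derived macrophages the share was 30.6%, in neutrophil-like cells 24.2%, in endothelial-like cells 17.5% and in neuroblast-like cells 16.2%. It was 6.67% in pericyte-like, 2.11% in oligodendrocyte-like and 1.63% in astrocyte-like cells, in which 9, 10 and 10 members lay below free RNA. In neuroblast-like cells 6 members did, and in endothelial-like cells 4. In microglia-like cells 1011 cells had exactly 5 members and 1102 had 4, so the class has no gap at this number. By library, the share in pericyte-like cells was 1.27%, 16.5%, 3.32%, 4.76%, 2.33% and 19.5% in libraries 1 to 6. Of the 58 such pericyte-like cells 22.4% were called doublets, and of the 60 such oligodendrocyte-like cells 26.7%, against 0.117% of the 3407 microglia-like ones.

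**Figure D5:**
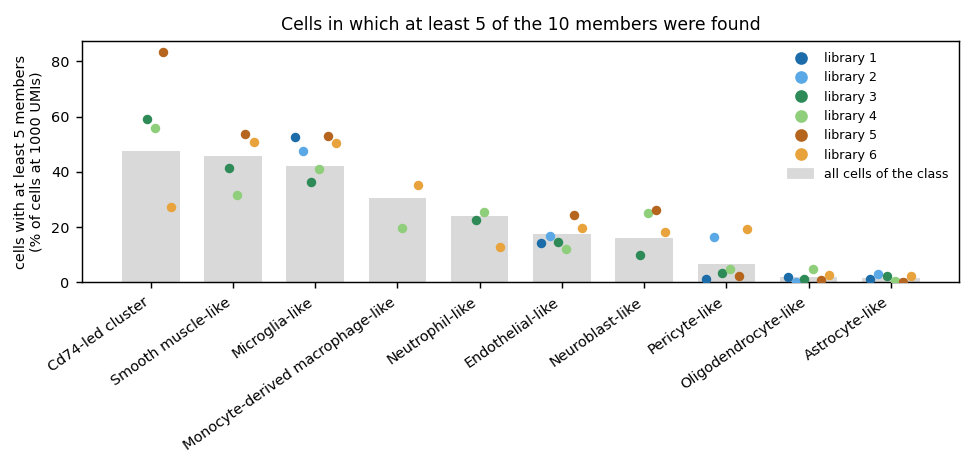
Percent of cells with at least 5 of the 10 members after thinning to 1000 UMIs, as a bar for all cells of a class and a point for each numbered library of at least 20 cells. Pericyte-like points of libraries 2 and 6 lie at 16.5% and 19.5%, above the other 4 libraries.

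Most pairs of members were found together in more cells than their own shares within each library would give. In microglia-like cells the ratio of found to expected cells ran from 1.10 (Jun with Jund) to 1.996 (Fosb with Egr2) over the 45 pairs, with a median of 1.38, and 19 pairs were at 1.5 or higher. Fosb with Nr4a1 was found in 425 cells where 219 were expected. In endothelial-like cells 19 of the 36 pairs with at least 5 expected cells reached 1.5, up to 3.09 for Fosb with Egr1 (112 cells where 36.2 were expected). In pericyte-like cells 21 of 32 such pairs did, in oligodendrocyte-like cells 19 of 28 and in cells like monocyte-derived macrophages 4 of 40. The lowest ratio among the last was 0.859, for Fosb with Ier2. A ratio is capped by the larger share of its pair. Jun was found in 81.3% of the thinned microglia-like cells, so its pairs could not reach 1.5 there, and Jund in 66.9%. In cells like monocyte-derived macrophages Jun was found in 70.2% and Junb in 71.8%, against 26.0% and 15.6% in pericyte-like cells. The counts of pairs therefore cannot be compared between classes, and they were not made over all pairs of genes. These ratios are a description of sparse counts in cells that share a library and, in part, a cluster.

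Genes outside the 10 were then compared between microglia-like cells with at least 5 members and the rest, on the UMIs that thinning had not used and against what the rest of the same library would give. Of all 10313 genes tested 2.18% were at least 2-fold higher in these cells. Of 11 other immediate-early genes tested, most of them genes of transcription factors, 9 were, among them Egr3 (5.09-fold), Nr4a3 (5.10), Klf4 (4.31) and Klf2 (3.68). Of 18 feedback inhibitors 13 were, including Dusp1 (3.66), a phosphatase that switches off MAP kinases, Zfp36 (2.45), which hastens mRNA decay, and Nfkbia (2.94), an inhibitor of NF-κB. Of 9 other AP-1, ATF, MAF and BATF subunits 3 were, with Maff at 6.12, and of 11 heat shock and chaperone genes 7 were, with Dnajb1 at 3.84 and Hspa1a at 2.73. Of 7 upstream factors 1 was (Crem, 2.14), and Creb1 was at 0.890 and Srf at 1.79. Median depth was 5831 UMIs in the former cells and 4721 in the latter.

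In endothelial-like cells 1.4% of 5429 genes were 2-fold higher in cells with at least 5 members, and the lists gave 4 of 9 other immediate-early genes, 9 of 14 feedback inhibitors and 6 of 11 heat shock genes. Egr3 was at 11.2-fold and Hspa1a at 4.49. Ccl3 and Csf1r, genes of microglia, were among the 10 highest ratios there, at 7.34 and 5.05. In oligodendrocyte-like cells, where 10.3% of 1721 genes were 2-fold higher, 6 of 6 other immediate-early genes, 10 of 11 feedback inhibitors and 4 of 11 heat shock genes were. Rgs1 and Ccl4, genes of microglia, were among the 10 highest there, at 16.5 and 12.8. In cells like monocyte-derived macrophages (1.48% of 2164 genes) 1 of 7 and 0 of 14 were, beside 5 of 11 heat shock genes. In pericyte-like cells (7.74% of 840 genes) 4 of 5, 4 of 8 and 6 of 11 were, and Ccl4 and P2ry12, also microglial, were among the 10 highest, at 28.8 and 6.10. What microglial RNA adds to the members in these cells was not tested.

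The lowest class was oligodendrocyte-like for 14 of 18 feedback inhibitors and 9 of 14 other immediate-early genes, as it was for 5 of the 10 members. The highest classes of the listed genes varied. With all libraries pooled, 9 feedback inhibitors were highest in neutrophil-like cells, and 10 of 11 heat shock genes were in the Cd74-led cluster, where no member was. How often each class was lowest or highest over all genes was not counted, so these tallies do not set the lists apart. Arc was highest in oligodendrocyte-like cells, at 37.5 CPM, and was named after its value was seen. At least 4-fold differences between classes were found for 12 of 12 tested other immediate-early genes, 18 of 18 feedback inhibitors, 9 of 10 other AP-1 family members, 6 of 8 upstream factors and 11 of 11 heat shock genes, beside the 85.1% of all genes. Among the classes of at least 100 cells, Klf2, which flow induces in endothelium, was highest in endothelial-like cells at 3534 CPM and lowest in oligodendrocyte-like cells at 68.8. Klf6 and Ier5 were highest in microglia-like cells, at 1542 and 1097 CPM. Of the feedback inhibitors with most UMIs, Nfkbia, Btg1 and Dusp1 were highest in neutrophil-like cells, at 2807, 3106 and 2176 CPM. Atf4, the AP-1 family gene with most UMIs, ran from 61.0 to 266 CPM, and Mafg from 61.9 to 178. Creb1, the upstream factor with most UMIs, ran from 36.6 to 96.98 CPM, and Elk3 was highest in endothelial-like cells at 180. Hsp90ab1 and Hspa8 were highest in the Cd74-led cluster, at 4436 and 4951 CPM, among these classes. T lymphocyte-like cells, with 95 cells, held 4675 CPM of Hsp90ab1.

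The genes most like the members were sought over 51 sums of cells, 1 for each class and library with at least 20 cells. Likeness was Pearson's r of log2(CPM + 10) with the mean of the members, over 11219 genes with at least 500 UMIs. Among the 10 highest were Btg2 (0.897), Ppp1r15a (0.889), Dusp1 (0.876), Ier5 (0.862), Klf4 (0.858), Klf6 (0.858), Zfp36 (0.836), Socs3 (0.832) and Hspa1a (0.827). These 9 were on the lists of related genes above, which together with the members held 71 genes of the matrix. The lists were chosen with earlier results of these data known, so the overlap is not independent of the data. With log2(CPM + 1) in place of log2(CPM + 10), Hspa1a was not among the 10 highest. Among the members themselves r ran from 0.484 (Egr2 with Ier2) to 0.909 (Junb with Atf3), with a median of 0.746 over 45 pairs. The 51 sums share libraries and classes and are not independent.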

How the data were processed

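The deposited matrix holds UMI counts per gene and barcode, which the authors made with Cell Ranger 5 on build mm10 and joined with its aggr step, which evens depth between runs and so may have thinned counts. Of 40769280 barcodes in 6 libraries, 22913 had at least 200 genes. Cells were called per library from the depth of their barcodes (cut at 0.1 of the 99th percentile of 3000 expected cells), with at most 10% mitochondrial counts. Doublets were marked by simulated pairs and kept, and the main results by library were also computed without them. Cells were clustered (2000 variable genes, 30 components, 20 neighbours, Leiden resolution 0.8) with the members and related lists left out of the variable genes. Clusters were named from marker lists, and 150 cells (0.864%) in 2 clusters rich in hemoglobin stayed unnamed.

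CPM is the UMIs of a gene in 1000000 UMIs, summed over the cells of a class. Intervals are exact Poisson intervals at 95%, and a library with fewer than 3 counts entered a ratio at 3 counts. Ratios between classes or libraries were computed for genes with at least 100 UMIs. With 1 library per group there was no test. The scripts were tested on simulated data.

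Members shown are all 10. Related genes named in the text are the 2 or 3 of each list with most UMIs and the genes most like the members, of which 1 is not reported here; examples of cells with at least 5 members, and Elk3, Ccl3, Ccl4, Csf1r and P2ry12, were chosen after their values were seen. Members and lists were chosen with earlier results of these data known. Rules for naming clusters (a lead of 0.5 in marker score, hemoglobin above 2% of UMIs, over 50% doublets), the name of the Cd74-led cluster, the limit of 5 expected cells for pairs, the motifs and their window, and 2 alternatives were set after the data were seen. Python 3.11.15 with NumPy 2.4.6, SciPy 1.17.1, pandas 2.3.3, scikit-learn 1.9.0, scikit-image 0.26.0, igraph 0.11.9, leidenalg 0.10.2 and matplotlib 3.10.9 were used.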

Additional observations from a re-analysis of the deposited data

How the results depend on the processing

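No paired analysis was possible because the groups have 1 library each and the library numbers are tied to no sample. The ratio of the highest to the lowest class of each member, with both classes fixed from the main result, stayed above 1 under the alternatives run. The main ratios ran from 8.24 to 36.3, so only a very large change could have reversed 1 of them. The order of libraries was recomputed under 1 alternative, without called doublets. Of the 57 tested pairs of member and class the highest library changed for Jun in oligodendrocyte-like, Fosb and Atf3 in astrocyte-like and Atf3 in pericyte-like cells. All 10 members stayed past 4-fold between classes without each library in turn. Of the counts that answer a comparison, 160 values under the alternatives stayed within 1.5 times the main one, and 2 did not: in endothelial-like cells 1 member passed a ratio of 4 instead of 0, once with CPM averaged over cells and once with the clusters of 2 libraries left out, an alternative chosen after seeing the data. Without each library in turn, members past 4-fold between libraries numbered 5 to 7 in oligodendrocyte-like, 5 to 7 in astrocyte-like and 6 to 8 in pericyte-like cells, 18 to 22 over all classes, and pairs in the same microglia-like cells 16 to 20. Without libraries 4 or 6, cells like monocyte-derived macrophages could not be compared, and without library 4 neutrophil-like cells were under 100, so the ratios of Junb and Egr2 were not computed. Of the ratios of single members, 62 values moved by more than their counting interval and 86 did not. Rare members limit the depth: Egr2 was tested between libraries in 3 classes.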
